A study of Mus musculus with 6 samples.

Results

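Integrins and focal adhesion genes were described across 6 RNA-seq libraries of BCR-ABL-transformed mouse pro-B cells that differed in the Ikaros gene (Ikzf1). The genes were chosen by symbol, as every α and β integrin subunit in the deposited table plus 15 named genes, called focal adhesion genes here. This gave 42 of 22098 gene symbols, made up of 18 α subunits, 9 β subunits and the 15 focal adhesion genes. The 15 include Ctnnd1, which encodes a catenin that binds cadherins. For the 13 of them with several transcript rows, the row of highest mean RPKM was used. Whole bone marrow suspensions of C57BL/6 mice had been transduced on day 0 with a retrovirus carrying BCR-ABL-p185 and a YFP marker, and the labels call the resulting cultures transformed proB-ALL. The genotypes were Ikaros ZnF1-/-, Ikaros ZnF4-/- and wild type, and the labels name each mutation by a zinc finger of Ikaros. Each genotype was sequenced once at day 21 and once at day 28 of culture, so that every group here has 2 libraries. All 3 groups carry BCR-ABL, and untransformed pro-B cells were not analysed here. Whether a genotype's days were sampled from separate cultures is not said in the labels, so p-values measure only the spread between these libraries.

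Integrins are receptors for extracellular matrix and for proteins on other cells, and each is a pair of 1 α and 1 β chain. Kindlins and talins bind the β chain's tail and switch the receptor into its active form. Vinculin and α-actinin then tie it to actin, and focal adhesion kinase (FAK, the product of Ptk2) with its adaptors passes the signal on. In B cell precursors the integrins α4β1 and α5β1 are known for holding cells to bone marrow stroma and fibronectin, and αLβ2 is the integrin shared by nearly all leukocytes. The integrins αMβ2 and αXβ2 are known chiefly from myeloid cells.

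Promoters of 4 genes that carried the main patterns are shown, since Ikaros is a transcription factor. The sequences are RefSeq windows on GRCm38.p6, from 250 bases before to 50 bases after the annotated start, on the strand of the gene. This build differs from the mm9 build of the expression values, so the positions apply to the sequences alone. Actn1 (chr12:80260314-80260613, minus strand) and Vcl (chr14:20929148-20929447, plus strand) are shown for genes higher in both mutants, with matches to the Ikaros core letters TGGGAA on either strand (TTCCCA in reverse) in capitals. Ctnnd1 (chr2:84658928-84659227, minus strand, the more upstream of 2 annotated starts) is shown for a gene highest in ZnF4 libraries. Itgam (chr7:128062390-128062689, plus strand) is shown for a gene higher in ZnF1 and lower in ZnF4 libraries. In Ctnnd1 and Itgam the capitals mark GAGGAA on either strand (TTCCTC in reverse), the core letters bound by the myeloid and B cell factor PU.1.
Actn1: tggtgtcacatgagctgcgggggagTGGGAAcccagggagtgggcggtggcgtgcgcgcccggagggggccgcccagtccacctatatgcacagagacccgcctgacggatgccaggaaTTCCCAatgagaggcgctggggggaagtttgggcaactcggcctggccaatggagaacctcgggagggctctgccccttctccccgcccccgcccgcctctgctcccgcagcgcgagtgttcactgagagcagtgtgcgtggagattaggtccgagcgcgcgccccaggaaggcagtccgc
Vcl: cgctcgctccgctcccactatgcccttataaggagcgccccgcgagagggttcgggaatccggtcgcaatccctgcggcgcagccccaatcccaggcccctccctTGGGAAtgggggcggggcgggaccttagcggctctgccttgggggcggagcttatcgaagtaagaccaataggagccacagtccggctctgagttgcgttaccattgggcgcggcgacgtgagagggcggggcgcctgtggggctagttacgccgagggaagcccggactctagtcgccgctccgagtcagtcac
Ctnnd1: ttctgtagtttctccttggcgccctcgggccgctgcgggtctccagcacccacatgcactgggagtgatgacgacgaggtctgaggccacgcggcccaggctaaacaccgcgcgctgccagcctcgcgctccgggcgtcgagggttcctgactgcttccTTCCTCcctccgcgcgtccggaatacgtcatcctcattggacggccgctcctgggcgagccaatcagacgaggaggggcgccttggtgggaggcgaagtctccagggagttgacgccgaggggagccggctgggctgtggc
Itgam: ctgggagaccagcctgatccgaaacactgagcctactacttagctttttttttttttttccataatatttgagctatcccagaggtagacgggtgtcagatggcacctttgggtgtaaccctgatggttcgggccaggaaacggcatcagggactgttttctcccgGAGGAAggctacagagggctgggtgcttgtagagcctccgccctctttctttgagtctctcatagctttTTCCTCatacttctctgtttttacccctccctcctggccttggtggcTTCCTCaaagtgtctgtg
TGGGAA occurred in 5 of the 34 promoter windows found for 29 of the 42 genes, in Actn1, Actn4, Bcar1, Itga2b and Vcl, against 25.6% of all 32851 mouse windows. Itga5, Itgb1 and Ctnnd1 were also higher in both mutants, and their windows held no TGGGAA. Actn1 and Vcl are thus not typical of that pattern in this respect. GAGGAA occurred in 13 of the 34 windows, against 28.3% of all windows, and Itgam held 3 matches. Itgb5 was also higher in ZnF1 and lower in ZnF4 libraries, and its window held no GAGGAA. The Itgam window thus does not stand for that pattern. The 2 motifs do not share letters in these 4 windows, since none holds both, and a match in a window is a description of its letters only. No window was found for Itgad, Itgae, Itgal, Itga6, Itga7, Itgb2, Itgb3, Itgb4, Parva, Ptk2, Ptk2b, Pxn and Tln2.

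The values are RPKM (reads per kilobase of transcript, scaled to the mapped reads of the library), rounded by the authors to 1 decimal, and the depth of the libraries is unknown, so no counting interval is given. Across genes, the Pearson coefficient between 2 libraries was 0.987 to 0.992 within a genotype and 0.903 to 0.955 between genotypes. Between 10401 and 11233 symbols reached 1 RPKM in a library. Ikzf1 itself stood at 108.0 and 91.4 RPKM in ZnF1, 186.0 and 165.9 RPKM in ZnF4 and 89.2 and 78.7 RPKM in wild type libraries, with day 21 before day 28 here and throughout. These rows cover the whole transcript, so they do not check the loss of a single finger. B lineage markers were high in every library. The 14 on the list summed to 2959.5 and 2948.2 RPKM in ZnF1, 3162.3 and 2816.9 RPKM in ZnF4 and 2988.5 and 2780.3 RPKM in wild type libraries. By the test described below, 2 of the 14 were higher and 0 lower in ZnF1 than in wild type libraries. In ZnF4, 4 were higher and 3 lower than in wild type libraries. Over all tested genes, 22.9% were higher and 15.2% lower in ZnF1, and 10.9% and 7.32% in ZnF4. Dntt was at 36.7 and 18.6 RPKM in ZnF4 and 118.8 and 106.7 RPKM in wild type libraries. Rag1 was at 49.6 and 44.3 RPKM in ZnF4 and 11.6 and 9.2 RPKM in wild type libraries.

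Markers of macrophages and of stromal cells were also present and differed with genotype. Those cells also use integrins, and their part in the integrin differences was not tested. The 16 macrophage and monocyte markers found of 17 listed summed to 2456.4 and 2366.7 RPKM in ZnF1, 287.8 and 345.5 RPKM in ZnF4 and 632.2 and 413.9 RPKM in wild type libraries. Lysozyme (Lyz2) was the most abundant of them, and none was at 0 in all libraries. All 14 that were tested were higher in ZnF1 than in wild type libraries, with a median log2 difference of 2.23, and 8 were lower in ZnF4 than in wild type libraries, with a median of -0.79. The 16 stromal and fibroblast markers summed to 241.3 and 226.1 RPKM in ZnF1, 31.5 and 27.6 RPKM in ZnF4 and 58.9 and 39.4 RPKM in wild type libraries, and only lumican (Lum) was at 0 throughout. Of their 13 tested genes, 13 were higher in ZnF1 and 5 were lower in ZnF4, each against wild type. By the same test, described below, 22.9% of all tested genes were higher in ZnF1 and 7.32% lower in ZnF4. Markers of granulocytes summed to at most 3.0 RPKM and of natural killer cells to at most 1.6 RPKM in any library. Sums of megakaryocyte, dendritic cell, mast cell and endothelial markers were also highest in ZnF1 libraries. Those of T cell and erythroid markers were highest in a wild type library. The megakaryocyte sum, mostly Pf4, was 73.5 and 82.6 RPKM in ZnF1. It was 14.7 and 21.6 RPKM in ZnF4 and 26.5 and 30.9 RPKM in wild type libraries. In bulk libraries, fewer cells of a type and less RNA per cell cannot be told apart.

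**Figure D1:**
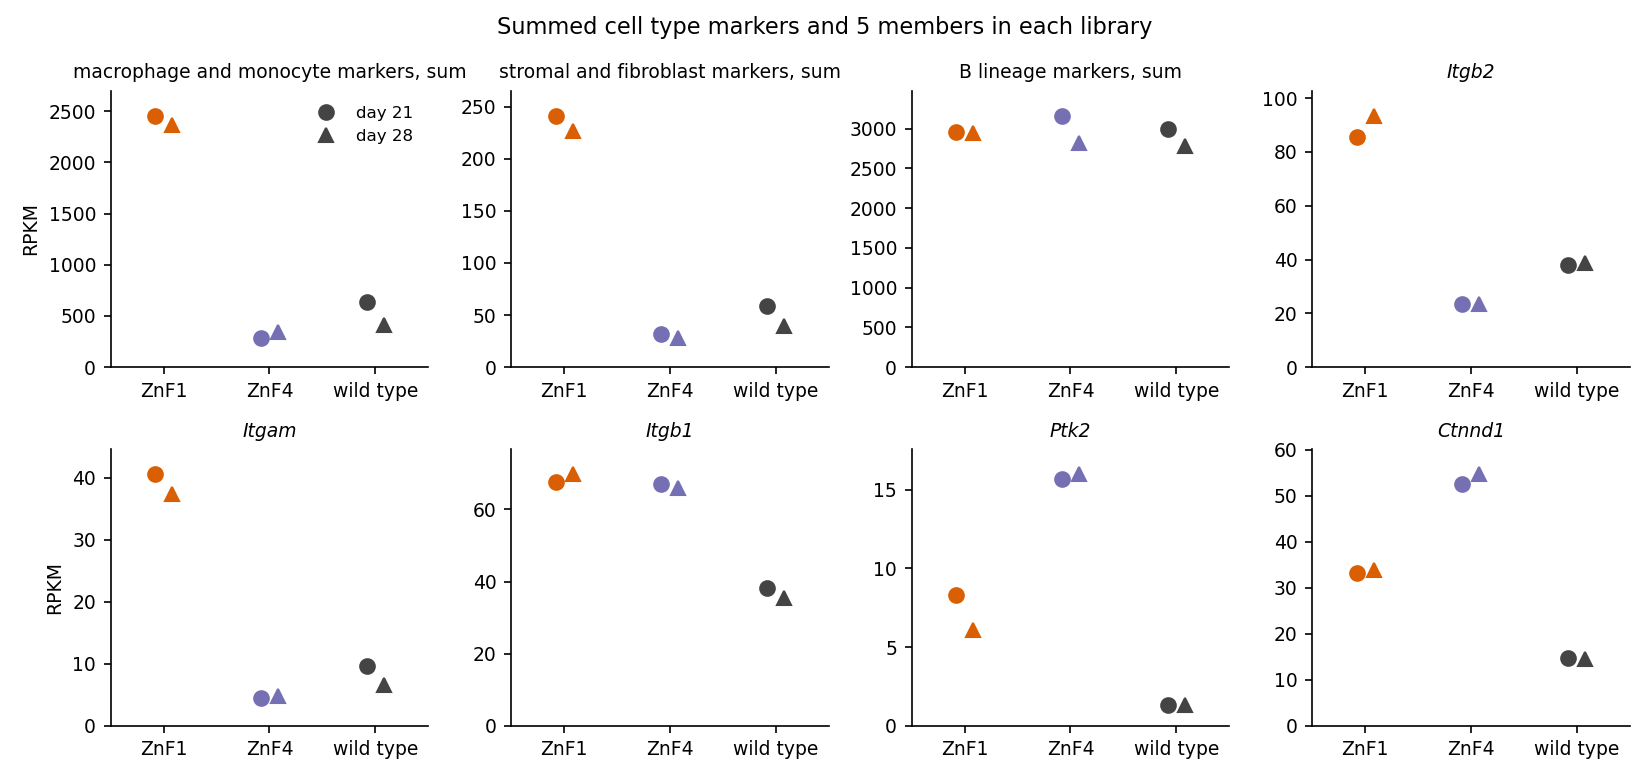
Summed marker levels of 3 cell types and the levels of Itgb2, Itgam, Itgb1, Ptk2 and Ctnnd1 in RPKM, on linear axes from 0, for ZnF1, ZnF4 and wild type libraries (circles day 21, triangles day 28). Itgam follows the order of the macrophage sum, highest in ZnF1 and lowest in ZnF4 libraries, whereas Ptk2 and Ctnnd1 are highest in ZnF4 libraries.

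The ZnF1 mutant had more RNA of most expressed integrin subunits and of 8 focal adhesion genes, and the ZnF4 mutant shared only part of this. Higher in both mutants than in wild type were 7 genes: the integrin chains Itga5, Itgal and Itgb1, and the focal adhesion genes Actn1, Ctnnd1, Ptk2 and Vcl. Itgam, Itgb2 and Itgb5 were called higher in ZnF1 but lower in ZnF4 than in wild type. Their ZnF4 differences stayed below 0 with each library left out, but none of these ZnF4 calls held in all of those fits. How many of all tested genes shared either pattern was not counted, so these joint counts have no background share. A gene was tested when it reached 1 RPKM in at least 2 of the 6 libraries, which 27 of the 42 did (8 α subunits, 4 β subunits and all 15 focal adhesion genes). It was called at an adjusted p below 0.05 in a limma fit of log2(RPKM + 1) to genotype and day, adjusted over all 11379 tested genes. Among the 27, 6 (Bcar1, Fermt2, Itga9, Itgb7, Parva and Tln2) had under 1 RPKM in each wild type library and passed the filter through mutant libraries, so counts are also given for the other 21.

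In ZnF1 against wild type libraries, 18 of the 27 tested genes rose and 0 fell, and over all tested genes 38.1% were called, 22.9% rising and 15.2% falling. Without the 6 genes that entered through mutant libraries, 13 of 21 rose and 0 fell. Of the 10578 tested genes at 1 RPKM or more in a wild type library, 1939 rose and 1728 fell. The median log2 difference of the 27 was 1.03, against -0.02 over all tested genes. By kind, 6 of 8 α subunits, 4 of 4 β subunits and 8 of 15 focal adhesion genes rose. In ZnF4 against wild type libraries, 8 of the 27 rose and 4 fell, against 18.2% called over all genes, 10.9% rising and 7.32% falling, with the members' median close to 0. All 12 of these calls were among the 21 genes that did not enter through mutant libraries. The 8 were 2 α subunits, 1 β subunit and 5 focal adhesion genes, and the 4 that fell were all integrin subunits (Itga4, Itgam, Itgb2 and Itgb5). Among the 10578 genes named above, 1016 rose and 826 fell in ZnF4. The same 10578 genes are the background for the reduced list counts below. Both comparisons use the same wild type libraries, so they are not independent of each other. Of these calls, 15 of the 18 in ZnF1 held with each library left out and in each alternative fit that tested them. Of those 15, 5 (Bcar1, Fermt2, Itga9, Itgax and Parva) averaged under 4 RPKM and were not tested under the higher filter. In ZnF4, 3 of the 12 calls held in this way (Actn1, Ctnnd1 and Ptk2).

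**Figure D2:**
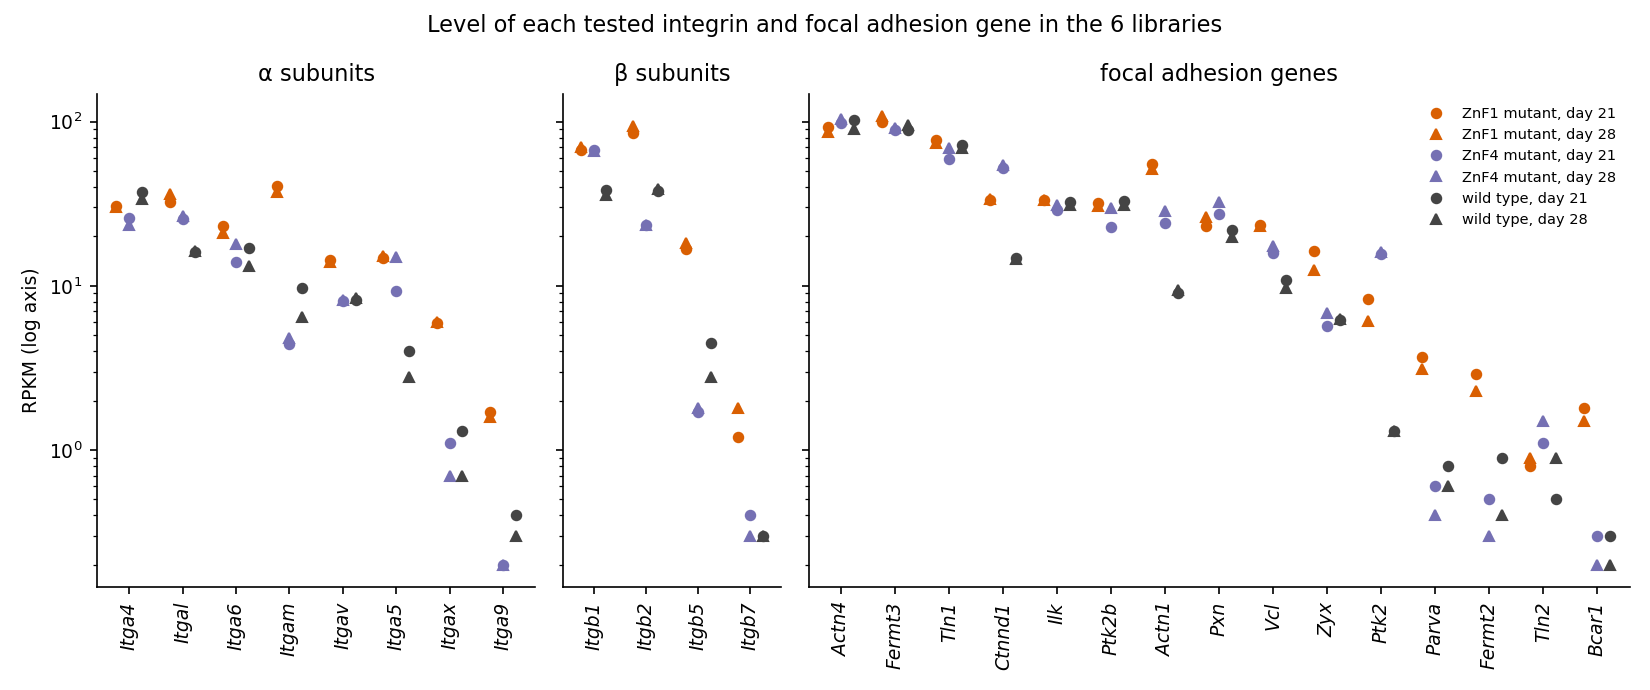
RPKM (log axis) of the 27 tested genes, α subunits, β subunits and focal adhesion genes in separate panels, with ZnF1 in orange, ZnF4 in purple and wild type in dark grey (circles day 21, triangles day 28). ZnF1 points lie above wild type for most integrin subunits, and Actn4, Fermt3, Tln1 and Ilk lie close together in all 6 libraries.

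Of the β2 integrin chains, Itgb2 and Itgam were higher in ZnF1 and lower in ZnF4 than in wild type libraries. Itgax was higher in ZnF1 only. Itgb2, the common β2 chain, stood at 85.5 and 93.5 RPKM in ZnF1, 23.4 and 23.4 RPKM in ZnF4 and 38.0 and 38.7 RPKM in wild type libraries. The 3 genotypes did not overlap, and Itgb2 was 1.20 ± 0.07 higher in ZnF1 (log2 difference ± SE, limma adjusted p = 0.001) and fell by 0.69 ± 0.07 in ZnF4 (adjusted p = 0.00379). Itgam, the αM chain also called CD11b, stood at 40.6 and 37.4 RPKM in ZnF1, 4.4 and 4.8 RPKM in ZnF4 and 9.7 and 6.5 RPKM in wild type libraries. It was 2.16 ± 0.15 higher in ZnF1 (adjusted p = 0.00109) and fell by 0.68 ± 0.15 in ZnF4 (adjusted p = 0.0401), and the groups again did not overlap. Itgax, the αX chain or CD11c, was at 5.9 and 6.0 RPKM in ZnF1 libraries, 1.1 and 0.7 RPKM in ZnF4 libraries and 1.3 and 0.7 RPKM in wild type libraries. Its ZnF1 values were above all others (1.81 ± 0.14, adjusted p = 0.00122), and its ZnF4 values lay within the wild type range. The ZnF4 call on Itgb2 ended when ZnF4 day 28 or a wild type library was left out (highest adjusted p 0.0774), and that on Itgam when any library was (highest adjusted p 0.226).

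Itgal, the αL chain that pairs with β2 in lymphocytes, did not follow Itgam. It stood at 32.4 and 36.0 RPKM in ZnF1, 25.4 and 26.5 RPKM in ZnF4 and 16.1 and 16.3 RPKM in wild type libraries, so that both mutants lay above wild type. The difference was 1.03 ± 0.07 in ZnF1 (adjusted p = 0.00102) and 0.65 ± 0.07 in ZnF4 (adjusted p = 0.0049), although leaving out any ZnF4 or wild type library ended the ZnF4 call (highest adjusted p 0.0857). Shares were taken of the summed RPKM of the α partners Itgal, Itgam, Itgax and Itgad. Itgal made up 41.0% and 45.3% in ZnF1, 82.2% and 82.8% in ZnF4 and 59.4% and 69.4% in wild type libraries. Itgam made up 51.4% and 47.1% in ZnF1, 14.2% and 15% in ZnF4 and 35.8% and 27.7% in wild type libraries. Thus ZnF1 libraries held about as much Itgam as Itgal RNA, and ZnF4 libraries mostly Itgal RNA. Itgad, the αD chain, reached at most 0.1 RPKM.

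**Figure D3:**
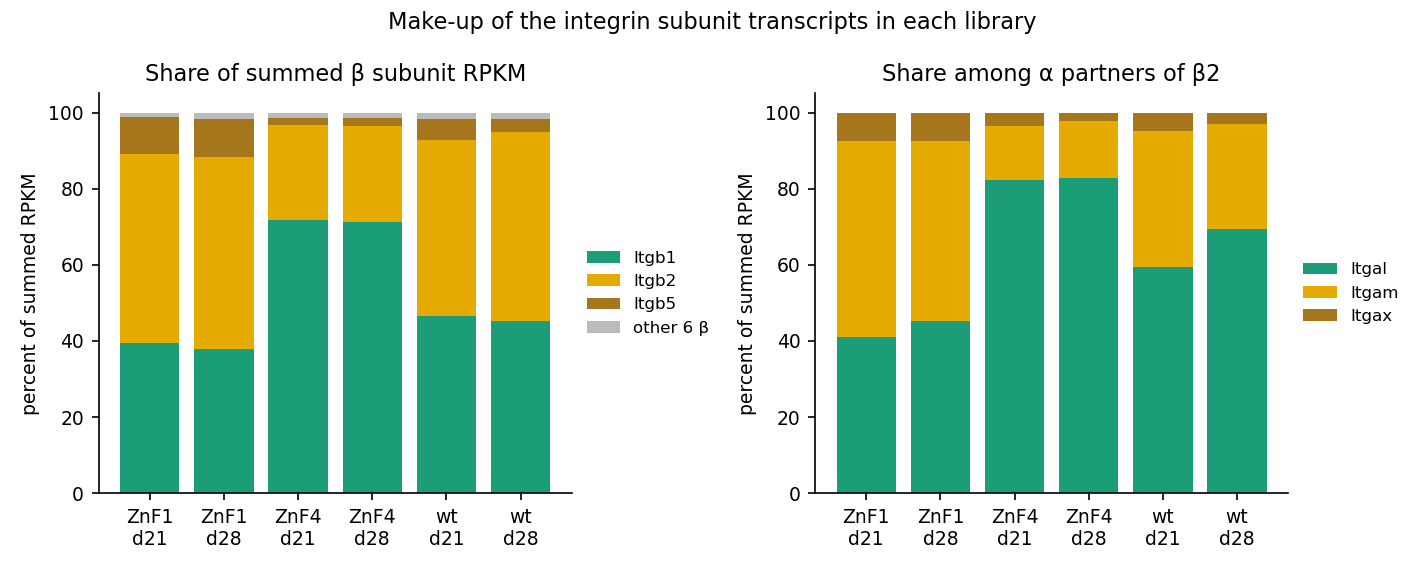
Stacked bars of the percent of summed RPKM in each library, by β chain (left) and among the α partners of β2 (right). The α partners are Itgal, Itgam, Itgax and Itgad, and Itgad is not drawn. Itgb1 takes 71.8% and 71.3% of the β chain RNA in ZnF4 libraries, more than in ZnF1 or wild type libraries, and Itgal takes most of the β2 partner RNA there.

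Itgam moved in near proportion to the macrophage markers. Per 1000 RPKM of the summed macrophage markers, Itgam stood at 16.5 and 15.8 RPKM in ZnF1, 15.3 and 13.9 RPKM in ZnF4 and 15.3 and 15.7 RPKM in wild type libraries. Its highest library was 1.19-fold its lowest on this scale and 9.23-fold its lowest in RPKM. Itga9 and Itgb5 showed the same, at 1.25-fold and 1.48-fold on this scale against 8.5-fold and 10.7-fold in RPKM. The lowest Itga9 value, 0.2 RPKM, is near the 0.1 RPKM rounding step, so the spreads given for Itga9 are rough. Itgax varied more, at 2.26-fold on this scale against 8.57-fold in RPKM. Itgb2 was less proportional, at 34.8 and 39.5 RPKM per 1000 RPKM of markers in ZnF1, 81.3 and 67.7 in ZnF4 and 60.1 and 93.5 in wild type libraries. Ptk2 was far from proportional, with 3.38 and 2.58 RPKM per 1000 in ZnF1, 54.6 and 46.3 in ZnF4 and 2.06 and 3.14 in wild type libraries. Set against the summed stromal markers instead, Itgam varied 1.25-fold, Itga9 1.20-fold and Itgb5 1.49-fold. The part of macrophage or stromal markers in these differences was not tested.

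Of the β1 integrins, the common chain and α5 rose in both mutants, and α4 did not. Itgb1 stood at 67.5 and 69.8 RPKM in ZnF1, 67.2 and 66.0 RPKM in ZnF4 and 38.3 and 35.5 RPKM in wild type libraries. The mutants lay side by side and above wild type, by 0.88 ± 0.07 in ZnF1 (adjusted p = 0.00133) and 0.84 ± 0.07 in ZnF4 (adjusted p = 0.00245), and leaving out wild type day 28 ended the ZnF4 call (adjusted p = 0.0572). Itga5, the α5 chain of the fibronectin receptor, stood at 14.8 and 15.1 RPKM in ZnF1, 9.3 and 14.9 RPKM in ZnF4 and 4.0 and 2.8 RPKM in wild type libraries. It was 1.87 ± 0.24 higher in ZnF1 (adjusted p = 0.00385) and 1.55 ± 0.24 higher in ZnF4 (adjusted p = 0.0124), with every mutant value above every wild type value. Its ZnF1 call ended when a ZnF1 library was left out (highest adjusted p 0.0582), and its ZnF4 call when a ZnF1 library or the day 28 library of ZnF4 or wild type was (highest adjusted p 0.102).

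Itga4, the α4 chain that binds VCAM1 and fibronectin, was the leading α subunit of wild type libraries. It stood at 30.7 and 30.4 RPKM in ZnF1, 25.8 and 23.6 RPKM in ZnF4 and 37.2 and 33.6 RPKM in wild type libraries. It fell by 0.50 ± 0.07 in ZnF4 (adjusted p = 0.00986), a call that ended when any ZnF4 or wild type library was left out (highest adjusted p 0.142), and its difference in ZnF1 was -0.20 ± 0.07 (adjusted p = 0.0728). The ratio of Itga5 to Itga4, which does not depend on how a library is scaled, was 0.482 and 0.497 in ZnF1, 0.360 and 0.631 in ZnF4 and 0.108 and 0.0833 in wild type libraries. The ratio of Itgb1 to Itgb2 was 0.789 and 0.747 in ZnF1, 2.87 and 2.82 in ZnF4 and 1.01 and 0.917 in wild type libraries. The mutants therefore lay on opposite sides of wild type in the balance of β1 to β2, and on the same side in that of α5 to α4. Itga6, the α6 chain of laminin receptors, stood at 23.1 and 20.9 RPKM in ZnF1, 14.0 and 18.0 RPKM in ZnF4 and 17.0 and 13.2 RPKM in wild type libraries and was called in no comparison (ZnF1 against wild type 0.52 ± 0.17, adjusted p = 0.0606).

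The αv, β5, α9 and β7 chains were each called higher in ZnF1 libraries than in wild type libraries and higher than in ZnF4 libraries. Itgav, the αv chain of vitronectin and osteopontin receptors, stood at 14.4 and 14.0 RPKM in ZnF1, 8.1 and 8.2 RPKM in ZnF4 and 8.2 and 8.4 RPKM in wild type libraries. Its difference was 0.71 ± 0.08 in ZnF1 (adjusted p = 0.00241) and -0.02 ± 0.08 in ZnF4. Itgb5, which pairs with αv, stood at 16.7 and 18.2 RPKM in ZnF1, 1.7 and 1.8 RPKM in ZnF4 and 4.5 and 2.8 RPKM in wild type libraries. It was 2.01 ± 0.18 higher in ZnF1 (adjusted p = 0.00156) and fell by 0.73 ± 0.18 in ZnF4 (adjusted p = 0.0472), and leaving out any library ended the ZnF4 call (highest adjusted p 0.246). Its share of all β chain RNA was 9.73% and 9.85% in ZnF1, 1.82% and 1.94% in ZnF4 and 5.47% and 3.58% in wild type libraries. Itga9, the α9 chain, reached 1.7 and 1.6 RPKM in ZnF1 libraries, 0.2 and 0.2 RPKM in ZnF4 libraries and 0.4 and 0.3 RPKM in wild type libraries (ZnF1 minus wild type 0.97 ± 0.10, adjusted p = 0.00206). Itgb7, the β7 chain of the gut-homing integrin α4β7, was at 1.2 and 1.8 RPKM in ZnF1, 0.4 and 0.3 RPKM in ZnF4 and 0.3 and 0.3 RPKM in wild type libraries. Its ZnF1 call (0.93 ± 0.14, adjusted p = 0.00681) ended when a wild type library was left out (highest adjusted p 0.0807).

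Summed over all α subunits, the level was 165.5 and 163.3 RPKM in ZnF1, 89.6 and 98.6 RPKM in ZnF4 and 94.9 and 82.9 RPKM in wild type libraries. Summed over all β subunits, it was 171.6 and 184.7 RPKM in ZnF1, 93.6 and 92.6 RPKM in ZnF4 and 82.2 and 78.3 RPKM in wild type libraries. The ZnF4 total was thus near the wild type one for α chains, with a different make-up.

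Among the kinases, FAK RNA showed the largest proportional difference from wild type in the ZnF4 libraries of the 27 genes, and its relative Pyk2 showed none that was called. Ptk2 (FAK) stood at 8.3 and 6.1 RPKM in ZnF1, 15.7 and 16.0 RPKM in ZnF4 and 1.3 and 1.3 RPKM in wild type libraries. The groups did not overlap, with mean levels 5.54-fold wild type in ZnF1 and 12.2-fold in ZnF4. On the log2 scale Ptk2 was 1.82 ± 0.13 higher in ZnF1 (adjusted p = 0.00111), 2.87 ± 0.13 higher in ZnF4 (adjusted p = 0.000691) and 1.05 ± 0.13 higher in ZnF4 than in ZnF1 (adjusted p = 0.00264). Ptk2b (Pyk2), the related kinase of haematopoietic cells, stood at 32.0 and 30.6 RPKM in ZnF1, 22.9 and 29.6 RPKM in ZnF4 and 33.0 and 31.0 RPKM in wild type libraries. The ratio of Ptk2 to Ptk2b was 0.259 and 0.199 in ZnF1, 0.686 and 0.541 in ZnF4 and 0.0394 and 0.0419 in wild type libraries, so Pyk2 RNA exceeded FAK RNA in all 6.

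Ctnnd1, which encodes p120-catenin, a catenin that binds cadherins, followed Ptk2. It stood at 33.2 and 33.9 RPKM in ZnF1, 52.5 and 54.7 RPKM in ZnF4 and 14.8 and 14.5 RPKM in wild type libraries. It was 1.14 ± 0.07 higher in ZnF1 (adjusted p = 0.001), 1.80 ± 0.07 higher in ZnF4 (adjusted p = 0.000537) and 0.66 ± 0.07 higher in ZnF4 than in ZnF1 (adjusted p = 0.00135). Ptk2 and Ctnnd1 were the 2 members of the 27 that were called higher in ZnF4 than in ZnF1 libraries, against 22.3% of all tested genes. In GENCODE M21 the exons of Ctnnd1 share 69.7% of their bases with the same-strand gene Gm28635, and those of Itgam 70.0% with Gm49368, so reads of these pairs may be split or shared. The macrophage sum was lower in ZnF4 than in wild type libraries, and Ptk2 and Ctnnd1 were higher in ZnF4 than in wild type libraries. Whether these differences are related was not tested.

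**Figure D4:**
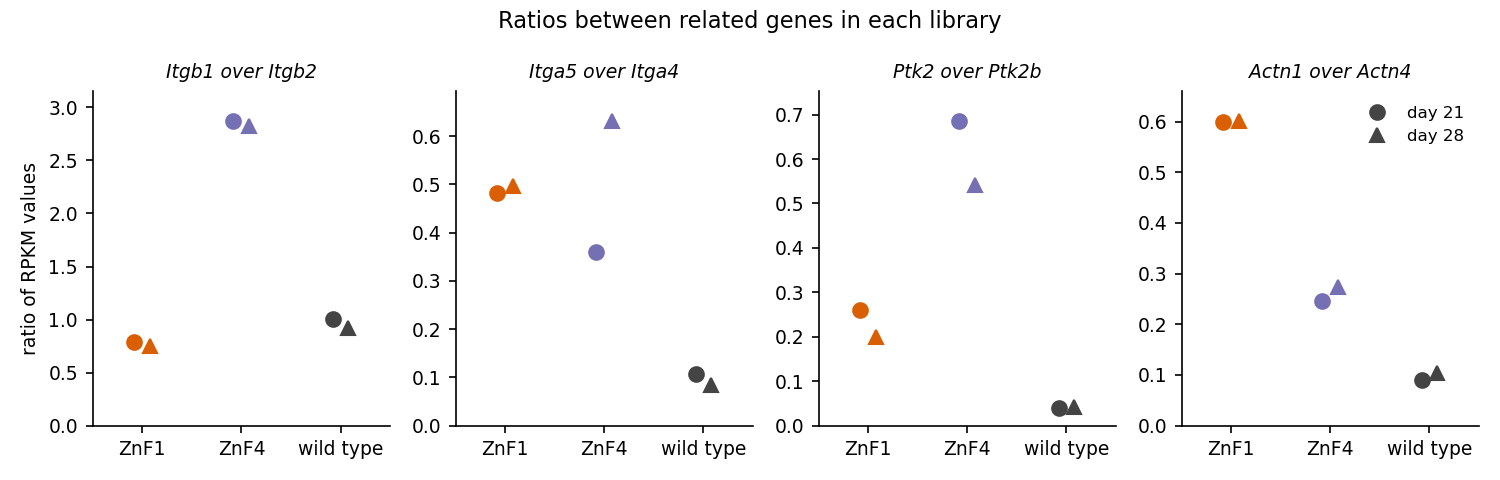
Ratios of RPKM between related genes in each library, on linear axes from 0, for ZnF1, ZnF4 and wild type (circles day 21, triangles day 28). Itgb1 over Itgb2 and Ptk2 over Ptk2b are highest in ZnF4 libraries, Actn1 over Actn4 is highest in ZnF1 libraries, and Itga5 over Itga4 is above wild type in both mutants.

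Of the actin linkers, α-actinin-1 and vinculin rose in both mutants and more in ZnF1. Actn1 stood at 55.4 and 51.7 RPKM in ZnF1, 24.0 and 28.5 RPKM in ZnF4 and 9.1 and 9.4 RPKM in wild type libraries. Its groups did not overlap, and it was 2.41 ± 0.10 higher in ZnF1 (adjusted p = 0.001) and 1.41 ± 0.10 higher in ZnF4 (adjusted p = 0.00152), with a difference of ZnF4 minus ZnF1 of -1.01 ± 0.10 (adjusted p = 0.00125). Vcl (vinculin) stood at 23.4 and 23.1 RPKM in ZnF1, 15.9 and 17.6 RPKM in ZnF4 and 10.8 and 9.7 RPKM in wild type libraries. It was 1.11 ± 0.09 higher in ZnF1 (adjusted p = 0.00135) and 0.66 ± 0.09 higher in ZnF4 (adjusted p = 0.00978), and leaving out ZnF4 day 28 or a wild type library ended the ZnF4 call (highest adjusted p 0.114). Ap3m1 lies on the opposite strand over 39.7% of the exon bases of Vcl in GENCODE M21, and without strand information their reads cannot be told apart.

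Actn4, the α-actinin of most non-muscle cells, was among the most abundant members and was called in no comparison. It stood at 92.6 and 86.0 RPKM in ZnF1, 97.9 and 104.1 RPKM in ZnF4 and 101.8 and 90.8 RPKM in wild type libraries. The ratio of Actn1 to Actn4 was 0.598 and 0.601 in ZnF1, 0.245 and 0.274 in ZnF4 and 0.0894 and 0.104 in wild type libraries. Tln1 (talin 1), which links β chains to actin and activates them, stood at 77.8 and 74.0 RPKM in ZnF1, 59.0 and 69.3 RPKM in ZnF4 and 71.7 and 69.3 RPKM in wild type libraries, with no call in any comparison and its lowest value in a ZnF4 library. Tln2 reached at most 1.5 RPKM and was not called either, with the ZnF4 difference from wild type at 0.44 ± 0.11 (adjusted p = 0.0533). Zyx (zyxin), found where actin bundles meet adhesions, was at 16.4 and 12.5 RPKM in ZnF1, 5.7 and 6.8 RPKM in ZnF4 and 6.2 and 6.3 RPKM in wild type libraries. It was higher in ZnF1 by 1.08 ± 0.15 (adjusted p = 0.00531), a call that ended when a wild type library was left out (highest adjusted p 0.0774), and its ZnF4 values enclosed the wild type ones.

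The kindlins and the ILK complex held called and uncalled genes. Fermt3 (kindlin-3), the kindlin of blood cells, stood at 99.0 and 108.3 RPKM in ZnF1, 88.5 and 91.8 RPKM in ZnF4 and 89.0 and 94.8 RPKM in wild type libraries and was called in no comparison. Fermt2 (kindlin-2), the kindlin of adherent tissues, was at 2.9 and 2.3 RPKM in ZnF1, 0.5 and 0.3 RPKM in ZnF4 and 0.9 and 0.4 RPKM in wild type libraries, and rose in ZnF1 by 1.14 ± 0.11 (adjusted p = 0.00183). Parva (α-parvin), which binds ILK and actin, was at 3.7 and 3.1 RPKM in ZnF1, 0.6 and 0.4 RPKM in ZnF4 and 0.8 and 0.6 RPKM in wild type libraries, and rose in ZnF1 by 1.37 ± 0.09 (adjusted p = 0.00102). Ilk, the scaffold of that complex, stood at 33.5 and 33.3 RPKM in ZnF1, 29.0 and 31.1 RPKM in ZnF4 and 32.4 and 31.2 RPKM in wild type libraries and was not called. Opposite-strand Taf10 covers 81.7% of the exon bases of Ilk in GENCODE M21, so the Ilk values may include its reads.

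Low-level Parva, Fermt2 and Bcar1 also tracked the summed stromal markers. Per 1000 RPKM of those markers, Parva was at 15.3 and 13.7 RPKM in ZnF1, 19.0 and 14.5 RPKM in ZnF4 and 13.6 and 15.2 RPKM in wild type libraries. Its highest library was 1.4-fold its lowest on this scale and 9.25-fold in RPKM, and for Fermt2 the spread was 1.56-fold against 9.67-fold and for Bcar1 1.88-fold against 9-fold. The lowest values of Parva, Fermt2 and Bcar1, 0.4, 0.3 and 0.2 RPKM, are near the 0.1 RPKM rounding step, so these spreads are rough. The macrophage and stromal sums had the same order of genotypes, so the data do not separate them, and the part of either in these differences was not tested. Bcar1 (p130Cas), a substrate of FAK and Src, was at 1.8 and 1.5 RPKM in ZnF1, 0.3 and 0.2 RPKM in ZnF4 and 0.3 and 0.2 RPKM in wild type libraries, and rose in ZnF1 by 1.08 ± 0.10 (adjusted p = 0.00158). Pxn (paxillin), the adaptor that recruits FAK, stood at 23.3 and 26.1 RPKM in ZnF1, 27.2 and 32.2 RPKM in ZnF4 and 21.9 and 19.8 RPKM in wild type libraries. It was called only in ZnF4 against wild type (0.49 ± 0.11, adjusted p = 0.037), a call that ended when any library was left out (highest adjusted p 0.225).

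**Figure D5:**
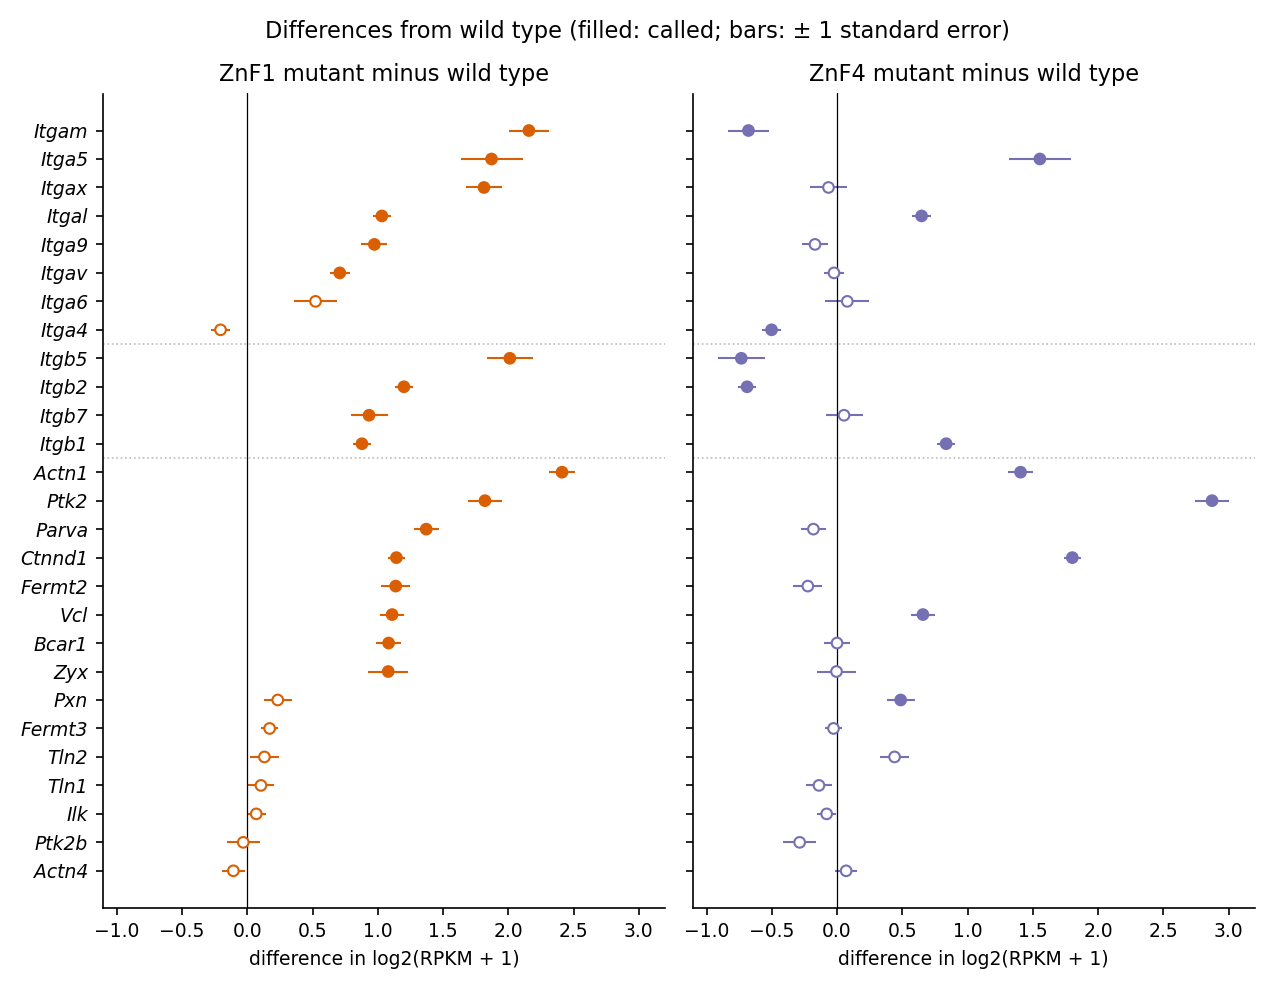
Differences in log2(RPKM + 1) from wild type for the 27 tested genes, ZnF1 on the left and ZnF4 on the right, with bars of 1 standard error and filled points for an adjusted p below 0.05. Of the ZnF1 points, 18 are filled and lie to the right of 0, and of the ZnF4 points 8 are filled to the right and 4 to the left.

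With the mutants set directly against each other, 15 of the 27 genes were called lower in ZnF4 than in ZnF1 libraries and 2 higher. Over all tested genes 45.5% were called, 23.2% lower and 22.3% higher. The median difference of the 27 was -0.44, against 0.03 over all genes. Among the 21 genes that did not enter through mutant libraries, 10 were lower and 2 higher, with a median of -0.32. Of the 10578 tested genes at 1 RPKM or more in a wild type library, 2129 were lower and 2417 higher. The largest differences among the 27 were those of Itgam at -2.84 ± 0.15 (adjusted p = 0.000426), Itgb5 at -2.75 ± 0.18 (adjusted p = 0.000527) and Itgb2 at -1.89 ± 0.07 (adjusted p = 0.000376). Itgb1, at -0.04 ± 0.07, and Itga5, at -0.32 ± 0.24, were not called. Leaving out any library ended the call on Itga4 (highest adjusted p 0.169), a ZnF1 library that on Itgal (0.0996), ZnF4 day 28 that on Itgb7 (0.056), and a ZnF1 library or ZnF4 day 21 that on Vcl (0.112).

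Regulators that act inside the cell to activate integrins moved in both directions. Of 16 tested genes on this list of 18, 6 rose and 1 fell in ZnF1, against 22.9% rising and 15.2% falling over all tested genes, and 2 rose and 3 fell in ZnF4, against 10.9% and 7.32%. The medians were 0.08 and -0.16. Among the 16, 2 genes (Rap1gap2 and Skap1) had under 1 RPKM in each wild type library, and without them 4 rose and 1 fell in ZnF1 and 0 rose and 3 fell in ZnF4. Skap2, an adaptor between Src kinases and integrins, was at 31.4 and 39.7 RPKM in ZnF1, 14.5 and 15.8 RPKM in ZnF4 and 13.2 and 13.5 RPKM in wild type libraries, and rose in ZnF1 (1.34 ± 0.09, adjusted p = 0.00106). Its partner Fyb was at 23.6 and 21.4 RPKM in ZnF1, 2.5 and 2.8 RPKM in ZnF4 and 6.0 and 3.4 RPKM in wild type libraries, and rose in ZnF1 (2.08 ± 0.19, adjusted p = 0.00169). Rassf5 (RAPL) and Apbb1ip (RIAM), effectors of Rap1, fell in ZnF4, with differences of -0.45 ± 0.07 (adjusted p = 0.0137) and -0.35 ± 0.07 (adjusted p = 0.0307). Skap1 and Rap1gap2 rose in both mutants but did not exceed 2.6 RPKM.

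Adhesion kinases, adaptors and regulators of small GTPases were mixed, and Dock1 shared the order of levels of Ptk2. Of 30 tested genes, 9 rose and 3 fell in ZnF1 and 3 rose and 3 fell in ZnF4 against wild type, with medians of 0.04 and -0.06. The shares called, 40% in ZnF1 and 20% in ZnF4, were near those over all tested genes (38.1% and 18.2%). Without the 3 genes under 1 RPKM in each wild type library, Dock1 among them, 6 of 27 rose and 3 fell in ZnF1 and 2 rose and 3 fell in ZnF4. Dock1, an exchange factor for Rac that acts downstream of p130Cas, stood at 3.0 and 2.6 RPKM in ZnF1, 12.4 and 11.5 RPKM in ZnF4 and 0.5 and 0.3 RPKM in wild type libraries. As for Ptk2, the order was ZnF4, ZnF1, wild type, with differences from wild type of 1.44 ± 0.09 in ZnF1 (adjusted p = 0.00101) and 3.21 ± 0.09 in ZnF4 (adjusted p = 0.000537). Pak1, a kinase activated by Rac, was at 13.2 and 10.9 RPKM in ZnF1, 20.4 and 15.6 RPKM in ZnF4 and 6.5 and 2.3 RPKM in wild type libraries, and rose by 1.39 ± 0.23 in ZnF1 (adjusted p = 0.00952) and 1.92 ± 0.23 in ZnF4 (adjusted p = 0.00647). The paxillin relatives Lpxn and Tgfb1i1 rose in ZnF1 by 1.22 ± 0.08 (adjusted p = 0.00102) and 1.27 ± 0.11 (adjusted p = 0.00158).

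Most partners that tie integrins to actin rose in ZnF1. Of 24 tested genes, 16 rose and 2 fell in ZnF1, with a median of 0.66, against 22.9% rising and 15.2% falling over all tested genes. In ZnF4, 2 rose and 2 fell, with a median of -0.09, against 10.9% and 7.32%. Without the 4 genes under 1 RPKM in each wild type library, Palld among them, 12 of 20 rose and 2 fell in ZnF1. Palld (palladin) was at 4.2 and 4.6 RPKM in ZnF1, 0.4 and 0.4 RPKM in ZnF4 and 0.8 and 0.7 RPKM in wild type libraries, and rose in ZnF1 by 1.63 ± 0.10 (adjusted p = 0.001). Flna (filamin A), which competes with talin for β tails, was at 99.7 and 82.3 RPKM in ZnF1, 77.1 and 84.6 RPKM in ZnF4 and 57.8 and 52.1 RPKM in wild type libraries, and rose by 0.71 ± 0.11 in ZnF1 (adjusted p = 0.00733) and 0.55 ± 0.11 in ZnF4 (adjusted p = 0.0285). Tes (testin), a zyxin-binding protein, went the other way: it was at 19.1 and 18.8 RPKM in ZnF1, 3.7 and 4.2 RPKM in ZnF4 and 29.2 and 27.2 RPKM in wild type libraries. Tes fell by 0.55 ± 0.09 in ZnF1 (adjusted p = 0.00856) and fell by 2.56 ± 0.09 in ZnF4 (adjusted p = 0.000537). Lims1 (PINCH1), the third protein of the ILK complex, rose in ZnF4 by 0.34 ± 0.07 (adjusted p = 0.0244).

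Most integrin ligands rose in ZnF1, alongside the stromal and macrophage markers given above, and Col1a1 is on the stromal list too. Of 20 tested ligands and counter-receptors, 17 rose and 0 fell in ZnF1 and 1 rose and 5 fell in ZnF4 against wild type, with medians of 1.32 and -0.12. Over all tested genes, 22.9% rose and 15.2% fell in ZnF1 and 10.9% rose and 7.32% fell in ZnF4. Of the 20, 7 had under 1 RPKM in each wild type library, and among the other 13, 10 rose and 0 fell in ZnF1 and 1 rose and 5 fell in ZnF4. Spp1 (osteopontin), a ligand of αv and α9 integrins, stood at 993.0 and 1012.5 RPKM in ZnF1, 96.2 and 83.3 RPKM in ZnF4 and 238.9 and 198.8 RPKM in wild type libraries. Thbs1 (thrombospondin 1) was at 83.0 and 76.2 RPKM in ZnF1, 10.7 and 8.2 RPKM in ZnF4 and 16.9 and 14.8 RPKM in wild type libraries. Both were higher in ZnF1 and lower in ZnF4 than in wild type libraries, with differences of 2.20 ± 0.10 and -1.27 ± 0.10 for Spp1 (adjusted p = 0.001 and 0.00207) and 2.26 ± 0.08 and -0.70 ± 0.08 for Thbs1 (adjusted p = 0.001 and 0.00601). So was Icam1, the chief counter-receptor of αLβ2, with 32.1 and 27.3 RPKM in ZnF1, 10.7 and 7.4 RPKM in ZnF4 and 21.2 and 20.1 RPKM in wild type libraries. Icam2, another αLβ2 counter-receptor, was instead higher in ZnF4, with 10.5 and 13.4 RPKM in ZnF1, 16.6 and 19.7 RPKM in ZnF4 and 11.1 and 11.9 RPKM in wild type libraries (ZnF4 minus wild type 0.61 ± 0.09, adjusted p = 0.0104).

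Membrane partners of integrins also moved in both directions. Of 16 tested genes, 9 rose and 2 fell in ZnF1 and 4 rose and 2 fell in ZnF4 against wild type, with medians of 0.51 and 0.08, where 38.1% of all tested genes were called in ZnF1 and 18.2% in ZnF4. The tetraspanins Cd9, Cd63 and Cd151, which associate with β1 integrins, rose in ZnF1 by 2.17 ± 0.23, 2.14 ± 0.24 and 1.07 ± 0.11 (adjusted p = 0.00219, 0.00265 and 0.00203). Slc3a2 (CD98 heavy chain), which binds β1 tails, was at 46.1 and 57.9 RPKM in ZnF1, 69.4 and 90.1 RPKM in ZnF4 and 40.4 and 54.4 RPKM in wild type libraries. Its light chain partner Slc7a5 was at 50.2 and 55.7 RPKM in ZnF1, 116.8 and 171.1 RPKM in ZnF4 and 64.2 and 87.2 RPKM in wild type libraries, and both rose in ZnF4, by 0.74 ± 0.07 (adjusted p = 0.00266) and 0.91 ± 0.11 (adjusted p = 0.00645). Cd44, a hyaluronan receptor, rose in ZnF1 and fell in ZnF4, with differences of 0.67 ± 0.07 (adjusted p = 0.00187) and -0.76 ± 0.07 (adjusted p = 0.00248). Cd47, the thrombospondin receptor that associates with integrins, fell in both, with differences of -0.27 ± 0.07 in ZnF1 (adjusted p = 0.0363) and -0.84 ± 0.07 in ZnF4 (adjusted p = 0.00248).

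Between the days, 0 of the 27 genes were called in day 28 against day 21 libraries, and 0 of all tested genes. At an unadjusted p below 0.05, 1 of the 27 (Fermt2) and 1631 of all tested genes passed in the same limma fit. The largest difference among the 27 was 0.30 on the log2 scale in size.

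The 15 members that were not tested lay below 1 RPKM in every library and were all integrin subunits, 10 α and 5 β. Itgb3, the platelet and osteoclast β3 chain, held the highest single value and was at 0.4 and 0.9 RPKM in ZnF1, 0.2 and 0.6 RPKM in ZnF4 and 0.4 and 0.3 RPKM in wild type libraries. Itga10, a collagen-binding chain, was above Itgb3 in the other 5 libraries, at 0.6 and 0.6 RPKM in ZnF1, 0.7 and 0.8 RPKM in ZnF4 and 0.5 and 0.5 RPKM in wild type libraries. Itgb4, the epithelial β4 chain, was at 0.2 and 0.3 RPKM in ZnF1, 0.7 and 0.4 RPKM in ZnF4 and 0.7 and 0.6 RPKM in wild type libraries. Itga11 reached at most 0.5 RPKM, and Itga1, Itga2, Itga2b, Itga3, Itga7, Itga8, Itgad, Itgae, Itgb2l and Itgb8 at most 0.3 RPKM. Itgb6, an epithelial chain, was listed at 0 in all 6 libraries. Values this low are near the 0.1 RPKM rounding step and were not compared.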

How the data were processed

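Poly(A) RNA was sequenced as unstranded fragmented cDNA, as far as the labels' protocols say. Per the submitters' processing notes, TopHat, bedtools and the mouse build mm9 were used. The authors deposited 1 table of RPKM values for 26531 transcript rows (1 stray row naming no gene stayed out), rounded to 1 decimal. Their read numbers are not given in the sources used here.

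From these, limma 3.58.1 (R 4.3.3) fitted genotype and day to log2(RPKM + 1) in the 6 libraries, moderated by empirical Bayes with a trend on the mean, and p-values were Benjamini-Hochberg adjusted over 11379 genes. This scale understates changes of low genes. The steps were tested on simulated data. A library's replicate number is its day, kept as a block: day changes correlated between genotypes across genes at 0.433, 0.249 and 0.226. Alternatives changed the pseudocount, filter, scaling, trend, block and libraries used. Members in every library were named when called or at 10 RPKM or more, and up to 4 list genes per comparison by smallest p. The members and lists were chosen with earlier results of these data known. The lists were described by counts, with no set test. A list gene that the naming rule picks is not reported here.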

Additional observations from a re-analysis of the deposited data

Results flagged for a closer look

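The day changes of 2 α subunits ran in opposite directions in ZnF4 and wild type cultures. Itga5 changed from day 21 to day 28 by 0.63 on the log2 scale in ZnF4 and by -0.40 in wild type cultures, and Itga6 by 0.34 in ZnF4 and -0.34 in wild type cultures. With 1 library per genotype and day this difference was not tested, and the least change considered (0.3) was chosen after the values were seen.

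Further transcript rows of 3 genes, used in no comparison above, were also at least 2-fold above wild type in both libraries of a mutant, counting rows of at least 1 RPKM there. A Ctnnd1 row was at 17.6 and 16.3 RPKM in ZnF1, 25.0 and 28.2 RPKM in ZnF4 and 8.0 and 7.1 RPKM in wild type libraries. Another Ctnnd1 row, 1 base shorter, was at 1.6 and 1.4 RPKM in ZnF4 and 0.4 and 0.3 RPKM in wild type libraries. A second Itgam row was at 1.6 and 1.6 RPKM in ZnF1 and 0.4 and 0.3 RPKM in wild type libraries, although its length differs by 3 bases from the row used. A second Ptk2 row was at 2.5 and 2.0 RPKM in ZnF1, 4.4 and 4.7 RPKM in ZnF4 and 0.4 and 0.4 RPKM in wild type libraries. Rows of 1 gene share most of their sequence, so they are not separate evidence.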

How the results depend on the processing

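Of 1194 recomputed differences of single genes, 1110 kept their side of the threshold, 68 lost the call and 16 gained it. No called difference reversed, and 20 of the 1110 were uncalled differences that changed sign. Without the day block, 18 members rose in ZnF1 and 8 rose and 3 fell in ZnF4, all against wild type, and Itgam in ZnF4 lost its call (adjusted p = 0.054). It changed no other member's call against wild type. With no filter, 5 members rose and 2 fell in ZnF4, and 1137 of all genes were called. With only the 2 genotypes compared in the fit, 2 members fell in ZnF4 and 1231 of all genes were called. Equal medians let 1 member fall in ZnF1 (Itga4) and put 4 members higher in ZnF4 than in ZnF1. With a mean of at least 4 RPKM, 9 members were lower in ZnF4 than in ZnF1. Leaving out each library in turn, 3 to 6 members rose and 0 to 2 fell in ZnF4 against wild type. The counts over all genes were then 1398 to 4475 in ZnF1 and 346 to 1230 in ZnF4 against wild type, and 2526 to 3896 between the mutants. A genotype left with 1 library was assumed to vary like the others. Quantile scaling put the median difference of all genes at -0.12 in ZnF1 minus wild type (2047 higher and 2913 lower) and at 0.12 in ZnF4 minus ZnF1 (3431 higher and 2359 lower), against -0.02 (2606 and 1730) and 0.03 (2540 and 2637) as reported. Equal medians gave 2313 higher and 3111 lower in ZnF1 minus wild type and 3329 and 2431 in ZnF4 minus ZnF1. The cause of these changes was not tested.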
